A study of Mus musculus with 18 samples.

Results

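The mitochondrial chromosome of the mouse carries its own small set of genes, and all of them were measured here in bulk liver RNA. They were taken as every row of the deposited count table whose symbol begins with mt-. That gave 37 genes of 54752: 13 mRNAs, 2 ribosomal RNAs (rRNAs) and 22 transfer RNAs (tRNAs). Of these, 36 had enough counts to be tested among 21914 genes. The aspartate tRNA mt-Td had 0 counts in all 18 libraries, which allows up to 3 counts in each.

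The 18 livers came from male C57BL/6 mice, 6 per group, each given 10 µl/g intraperitoneal injections 2 times a week for 12 weeks. In the Cirrhosis-PTH group the injection was 10% carbon tetrachloride (CCl4) in corn oil and the mice drank Pien Tze Huang (PTH), a traditional Chinese medicine, at 0.25 mg/g daily. In the Cirrhosis group the injection was the same CCl4 mixture and water was given by mouth. In the Control group the injection was corn oil alone, again with water by mouth. The mice were 6 weeks old when bought; the labels name no allele or transgene. CCl4 is a toxin that injures hepatocytes once they metabolise it. The protocol text speaks of 45 mice, 15 per group, and the design text of 6 per group; each library here is 1 mouse.

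Mitochondrial DNA is transcribed from both strands into long precursor RNAs that run through most of the circle. The mRNAs and rRNAs are cut free where the tRNAs between them fold, so neighbouring genes start from shared precursors and then differ in how fast each product decays. The 13 proteins are all core subunits of respiratory complexes I, III and IV and of ATP synthase (complex V). Everything else in those complexes, and every enzyme that copies, transcribes or translates the mitochondrial genome, is encoded in the nucleus. Hepatocytes are rich in mitochondria.

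In the reference annotation (GENCODE M21, build GRCm38) 12 mRNAs, both rRNAs and 14 tRNAs lie on the plus strand of the mitochondrial chromosome. The mRNA of mt-Nd6 and 8 tRNAs lie on the minus strand. The genes sit almost without gaps and some overlap, with 43 shared bases between mt-Atp8 and mt-Atp6, 14 between mt-Nd5 and mt-Nd6 and 7 between mt-Nd4l and mt-Nd4. The sources used here do not say whether counting used strand, so reads of mt-Nd6 and the 8 minus-strand tRNAs cannot be told apart from precursor RNA of the other strand. A tRNA count can likewise come from mature tRNA or from a precursor that still contains it.

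The tRNA sequences below are shown because their genes stand out in the counts: the first 4 are the tRNAs that were higher in Cirrhosis-PTH than in Cirrhosis livers, and the last had no counts. They are the GENCODE M21 transcripts, 5′ to 3′, with the anticodon in capitals. They carry cysteine, tyrosine, leucine, arginine and aspartate in the order given.
mt-Tc, chrM:5192-5257, minus strand: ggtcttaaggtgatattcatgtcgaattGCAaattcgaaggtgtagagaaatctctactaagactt
mt-Ty, chrM:5260-5326, minus strand: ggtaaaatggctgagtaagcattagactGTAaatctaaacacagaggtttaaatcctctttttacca
mt-Tl1, chrM:2676-2750, plus strand: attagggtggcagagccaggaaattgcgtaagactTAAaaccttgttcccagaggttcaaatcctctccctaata
mt-Tr, chrM:9808-9875, plus strand: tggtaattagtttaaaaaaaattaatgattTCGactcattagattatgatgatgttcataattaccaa
mt-Td, chrM:6942-7011, plus strand: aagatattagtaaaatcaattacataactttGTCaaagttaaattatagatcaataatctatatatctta
The genes of mt-Tc and mt-Ty are neighbours, 2 bases apart, and both run against the mt-Co1 mRNA that follows. The gene mt-Td starts 3 bases after the serine tRNA mt-Ts1 and ends 1 base before mt-Co2, and both of those neighbours were counted in every library.

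A second set of sequences bears on what the counts of 7 mRNAs mean. Chromosome 1 carries a nuclear insertion of mitochondrial DNA, and the annotation names 7 pseudogenes in it, at chr1:24611535-24616197 (GRCm38, minus strand). Over 4140 aligned bases these copies differed from mt-Co1, mt-Co2, mt-Atp6, mt-Co3, mt-Nd3, mt-Nd4l and mt-Nd4 at 2 positions. The first 60 bases of mt-Co3 (chrM:8607-8666) and of its copy Gm28437 (chr1:24613912-24613971), shown as an example of the identical runs, read:
mt-Co3 and Gm28437: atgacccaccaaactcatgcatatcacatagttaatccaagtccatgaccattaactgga
Both differences are shown in capitals, with positions counted from 1 at the first base of the mitochondrial gene. They are A1066T between mt-Co1 and Gm29216, and T3C between mt-Nd3 and Gm28438.
mt-Co1, chrM:6390-6423: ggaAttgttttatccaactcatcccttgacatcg
Gm29216, chr1:24616155-24616188, minus strand: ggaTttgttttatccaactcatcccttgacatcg
mt-Nd3, chrM:9459-9491: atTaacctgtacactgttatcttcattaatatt
Gm28438, chr1:24613087-24613119, minus strand: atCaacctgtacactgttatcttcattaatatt

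In the deposited table the genes and their copies both received counts. The ratio of copy counts to mitochondrial counts had a median over the 18 libraries of 0.998 for mt-Atp6, 0.985 for mt-Co2, 0.980 for mt-Co3 and 0.916 for mt-Nd4l. It was 0.630 for mt-Nd3, 0.416 for mt-Nd4, whose first 876 of 1378 bases are copied, and 0.0653 for mt-Co1, of which the copy holds the last 483 of 1545 bases. For mt-Co2, mt-Atp6, mt-Co3 and mt-Nd4l the ratio in single libraries was 0.882 or higher, except 0.797 for mt-Nd4l in Cirrhosis-PTH replicate 6. The sources used here do not say whether a read that matches both places was divided between them or counted for both. If divided, the levels below understate these genes against the others; if counted for both, they do not, and a sum over gene and copy counts such reads more than once. With each copy's counts added to its gene, the level per kilobase over all libraries was 1801 CPM for mt-Co2, against 907 CPM alone, and mt-Co1, mt-Co3 and mt-Co2 stayed the 3 highest mRNAs. The fold changes of the 7 genes moved by no more than 0.11 on the log2 scale when the counts were summed.

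**Figure D1:**
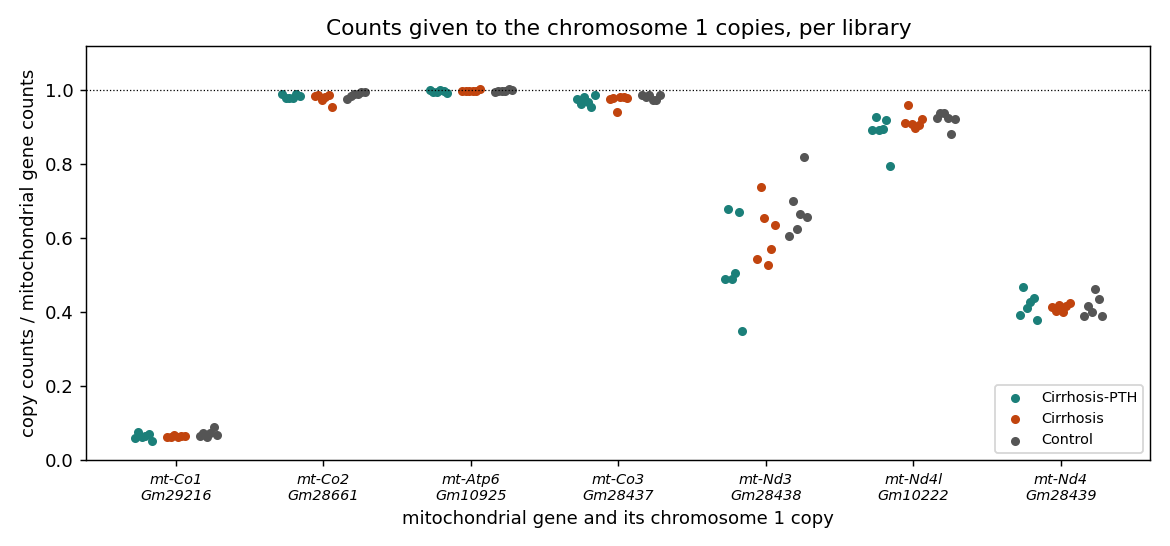
Ratio of the counts of each chromosome 1 copy to those of its mitochondrial gene, 1 point per library; the dotted line marks equal counts. The ratio lies near 1 for mt-Co2, mt-Atp6 and mt-Co3 in all groups, and ranges from 0.350 to 0.820 for mt-Nd3.

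Depth was high, with 62482144 to 112294112 counts per library, so sampling error was small for the mRNAs and rRNAs and larger for tRNAs such as mt-Tp, with 11 to 185 counts. Levels are CPM (counts scaled to a common library size) after TMM scaling, which sets library totals so that most genes do not shift. The TMM factors ranged from 0.854 to 1.23 in Cirrhosis-PTH, from 1.21 to 1.37 in Cirrhosis and from 0.578 to 0.930 in Control libraries. Loci that collect ribosomal RNA reads, mitochondrial rRNAs included, held 31.4 to 48.8% of counts in Cirrhosis-PTH, 37.1 to 41.0% in Cirrhosis and 39.9 to 60.8% in Control libraries. Hepatocyte markers were present throughout (15 of 15 counted in every library, none at 0). Their summed level was 57491 to 64870 CPM in Cirrhosis-PTH, 40376 to 60480 CPM in Cirrhosis and 60256 to 76062 CPM in Control livers. The stellate cell and myofibroblast markers summed to 400.0 to 909.7 CPM in Cirrhosis-PTH, 977 to 1329 CPM in Cirrhosis and 267 to 437 CPM in Control livers. In bulk liver, fewer cells of a type and less RNA per cell cannot be told apart.

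The first question was what CCl4 injury did to these RNAs. In Cirrhosis livers 32 of the 36 tested genes were lower than in Control livers and none was higher (edgeR quasi-likelihood test, adjusted p under 0.05). This took in all 13 mRNAs, both rRNAs and 17 of 21 tRNAs. Of all genes tested, 50.5% passed in that comparison, 25.0% lower and 25.5% higher. The median log2 fold change of the 36 genes was -1.03, against 0.015 over all genes. For 18 of them the highest Cirrhosis library lay below the lowest Control library, where 14.7% of all genes did so and 15.6% were separate in the other direction. The 4 that did not pass were the tRNAs mt-Tv, mt-Tl2, mt-Tt and mt-Tk, with log2 fold changes of -0.58, -0.38, -0.87 and -0.33. Without Control replicates 7 and 8 together 24 of the 36 were lower, where 4613 of 22867 genes tested were lower. Among the mRNAs mt-Nd3, mt-Nd6 and mt-Atp8 then no longer passed.

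The size of the drop depends on the scaling. When libraries were scaled by their totals alone, the median of all genes moved to 0.73 and the median of the 36 genes to -0.30. Of the 36 genes 3 were then lower: mt-Rnr1 at -0.87, mt-Nd1 at -0.58 and mt-Co1 at -0.40. Of all 21914 genes tested, 1116 were lower and 12934 higher. The distance between the medians of the 36 genes and of all genes was -1.04 with TMM factors and -1.03 without. A change of scaling moves all genes by nearly the same amount, so this distance cannot test which scaling is right. The 13 mRNAs made up 0.876 to 1.07% of all counts in Cirrhosis libraries and 0.775 to 1.63% in Control libraries. Outside the loci that collect ribosomal RNA reads the shares did not overlap, at 1.39 to 1.80% in Cirrhosis and 1.83 to 2.78% in Control libraries.

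The largest drop was in the small rRNA, though the mt-Nd2 mRNA was close to it at -1.64. The gene mt-Rnr1 encodes the 12S rRNA of the small mitochondrial ribosomal subunit. It had a lowest, median and highest level of 2108, 2864 and 3059 CPM in Cirrhosis livers, against 4301, 7758 and 12742 CPM in Control livers. All 6 Cirrhosis libraries lay below all 6 Control libraries. The log2 fold change was -1.65 ± 0.38 (SE; edgeR adjusted p 0.0014). The 16S rRNA of the large subunit, mt-Rnr2, had 28275, 33401 and 34686 CPM in Cirrhosis livers, against 39778, 65390 and 82340 CPM in Control livers. These groups were also separate, with a smaller log2 fold change of -0.97 ± 0.24 (edgeR adjusted p 0.00176). Ribosomal RNA was removed before sequencing, so these are the levels that survived removal, and how far removal differed between libraries was not tested.

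Among the 7 complex I genes, which encode membrane subunits of NADH dehydrogenase, all were lower in Cirrhosis livers, by log2 values from -1.64 to -0.80. The mt-Nd2 mRNA had 67.8, 81.5 and 98.8 CPM in Cirrhosis livers, against 108, 241 and 478 CPM in Control livers (log2 fold change -1.64 ± 0.43, edgeR adjusted p 0.00495). The Cirrhosis libraries all lay below the Control libraries, which spread widely among themselves. The mt-Nd1 mRNA had 272, 301 and 385 CPM in Cirrhosis livers, against 412, 728 and 1101 CPM in Control livers (log2 fold change -1.30 ± 0.27, edgeR adjusted p 0.000501). These did not overlap either. The mt-Nd4 and mt-Nd4l genes, which overlap, each changed by -1.12. The mt-Nd5 mRNA changed by -0.86, mt-Nd3 by -0.82 and mt-Nd6, alone among the mRNAs on the minus strand, by -0.80.

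Complex IV, cytochrome c oxidase, has its 3 catalytic core subunits encoded here, and they were the most abundant mRNAs per kilobase. The mt-Co1 mRNA, whose product carries the heme and copper site that reduces oxygen, had 3646, 4049 and 4947 CPM in Cirrhosis livers, against 6640, 9375 and 10701 CPM in Control livers. The groups did not overlap, and the log2 fold change was -1.11 ± 0.20 (edgeR adjusted p 9.89e-05). The mt-Co2 mRNA averaged 446 ± 46.9 CPM in Cirrhosis livers and 854 ± 166 CPM in Control livers (SD, n = 6 each), a log2 fold change of -0.94 ± 0.16 (edgeR adjusted p 3.58e-05). The mt-Co3 mRNA averaged 901 ± 80.0 CPM in Cirrhosis livers and 1666 ± 325 CPM in Control livers, a log2 fold change of -0.89 ± 0.14 (edgeR adjusted p 2.3e-05). These 3 had the smallest adjusted p-values among the mRNAs, and their libraries spread less than those of mt-Nd2 or mt-Atp8.

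Cytochrome b of complex III, mt-Cytb, averaged 665 ± 86.8 CPM in Cirrhosis livers and 1395 ± 391 CPM in Control livers (SD, n = 6 each), a log2 fold change of -1.07 ± 0.27. The ATP synthase subunit mt-Atp6, which forms part of the proton channel, averaged 161 ± 23.9 CPM in Cirrhosis livers and 422 ± 154 CPM in Control livers, a log2 fold change of -1.39 ± 0.36. Its overlapping neighbour mt-Atp8, a small subunit of the same complex, averaged 6.27 ± 1.06 CPM in Cirrhosis livers and 17.1 ± 10.7 CPM in Control livers, a log2 fold change of -1.44 ± 0.48. All 3 passed the edgeR test, with adjusted p-values of 0.00318, 0.00445 and 0.0185, and the mt-Atp8 libraries of both groups overlapped.

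**Figure D2:**
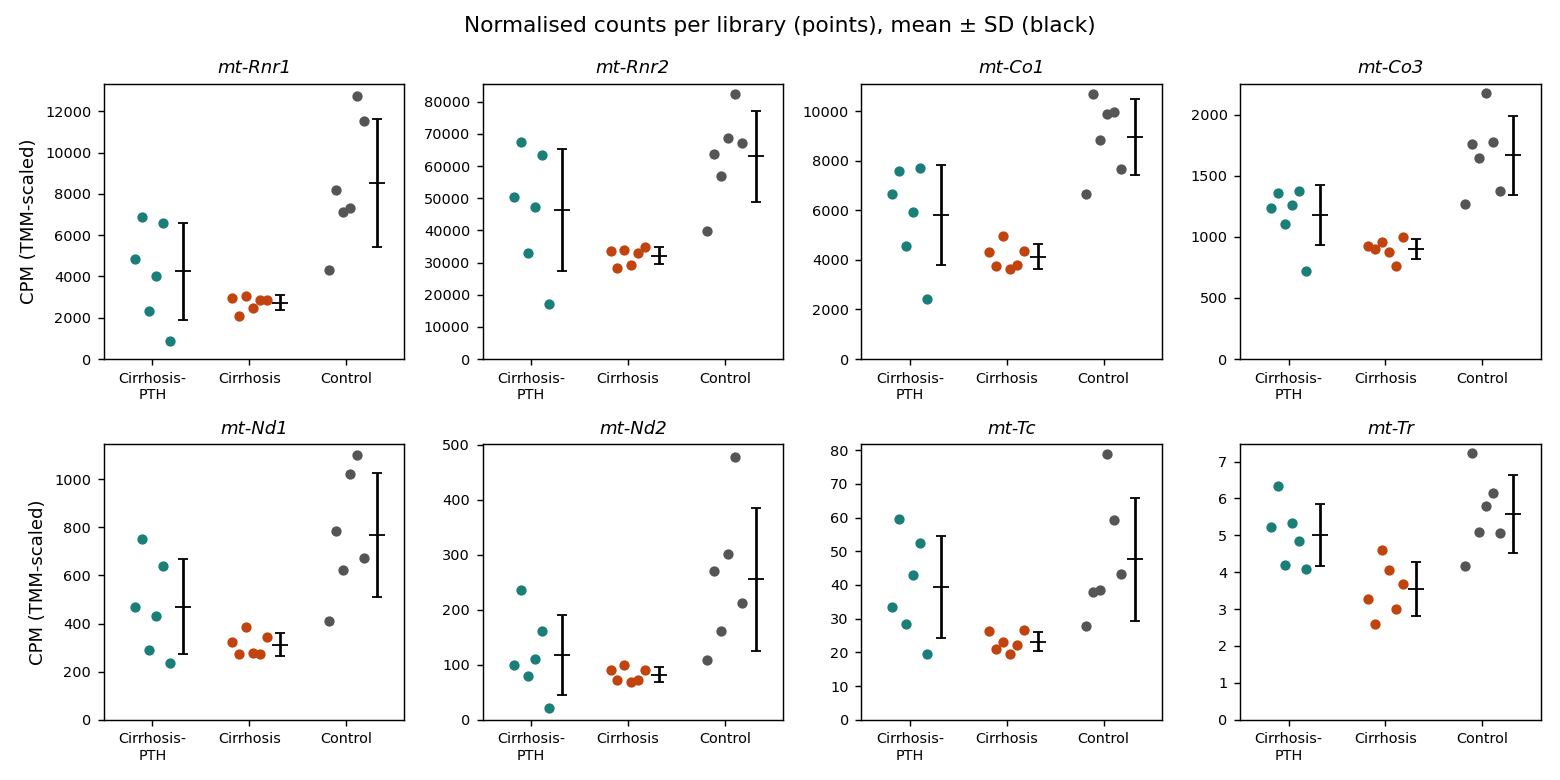
TMM-scaled CPM of 8 mitochondrially encoded genes in each library, with the group mean ± SD (n = 6) in black. Cirrhosis libraries lie below all Control libraries for the first 7 genes, and Cirrhosis-PTH libraries span a wide range that overlaps both other groups; mt-Rnr1 runs from 854 to 6862 CPM there.

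The tRNAs were present at lower counts, with mt-Tc and mt-Ty the highest. The cysteine tRNA mt-Tc had 19.5, 22.6 and 26.5 CPM in Cirrhosis livers, against 27.8, 40.9 and 78.8 CPM in Control livers (log2 fold change -1.04 ± 0.26, edgeR adjusted p 0.00318). Its groups were separate, if narrowly. The leucine tRNA mt-Tl1, which follows mt-Rnr2 directly, had 7.92, 9.33 and 9.86 CPM in Cirrhosis livers, against 12.3, 16.1 and 21.2 CPM in Control livers (log2 fold change -0.88 ± 0.15, edgeR adjusted p 6.8e-05). This was the smallest adjusted p among the tRNAs. The serine tRNA mt-Ts1, which runs against the end of mt-Co1, showed the largest tRNA change at -1.41 ± 0.38. The methionine tRNA mt-Tm changed by -1.29, the tryptophan tRNA mt-Tw by -1.22, the glutamate tRNA mt-Te by -1.21, the glutamine tRNA mt-Tq by -1.20 and the phenylalanine tRNA mt-Tf by -1.10, and all of these passed. The alanine tRNA mt-Ta at -0.98, the asparagine tRNA mt-Tn at -0.94 and the arginine tRNA mt-Tr at -0.66 passed as well. The 3 adjacent tRNAs between mt-Nd4 and mt-Nd5 had among the smallest changes, with mt-Th at -0.50, mt-Ts2 at -0.49 and mt-Tl2 at -0.38.

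The second question was whether Pien Tze Huang altered these levels in CCl4-treated mice. All 36 log2 fold changes of Cirrhosis-PTH over Cirrhosis were above 0, from 0.11 to 0.78, with a median of 0.40 against -0.0032 over all genes. Only 5 passed the edgeR test: mt-Co3, mt-Ty, mt-Tc, mt-Tl1 and mt-Tr were higher, and none was lower. Of all genes tested, 38.6% passed in that comparison, 20.1% higher and 18.6% lower, and the 13.9% of the 36 genes that were higher lie below that background. None of the 36 had separate libraries, against 11.8% of all genes separate and higher and 11.0% separate and lower. With libraries scaled by totals alone, the median of the 36 genes was 0.0025 and none passed, and the median of all genes moved to -0.34. Of all 21914 genes tested, 1506 were then higher and 6818 lower.

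The mt-Co3 mRNA had 719, 1250 and 1376 CPM in Cirrhosis-PTH livers, against 762, 911 and 995 CPM in Cirrhosis livers, with a log2 fold change of 0.38 ± 0.14 (edgeR adjusted p 0.0359). All Cirrhosis-PTH libraries but replicate 6 lay above all Cirrhosis libraries, and replicate 6 lay below them all. The tyrosine tRNA mt-Ty had 16.5, 32.9 and 49.7 CPM in Cirrhosis-PTH livers, against 16.3, 18.8 and 22.8 CPM in Cirrhosis livers, with a log2 fold change of 0.78 ± 0.26 (edgeR adjusted p 0.0233). Its neighbour mt-Tc changed by 0.77 ± 0.26 (edgeR adjusted p 0.027), from 19.5, 38.2 and 59.7 CPM in Cirrhosis-PTH livers set against the Cirrhosis values above. The mt-Tl1 tRNA had 8.0, 12.5 and 18.7 CPM in Cirrhosis-PTH livers (log2 fold change 0.50 ± 0.15, edgeR adjusted p 0.0135). The mt-Tr tRNA had 4.08, 5.04 and 6.34 CPM in Cirrhosis-PTH livers, against 2.59, 3.48 and 4.61 CPM in Cirrhosis livers (log2 fold change 0.50 ± 0.15, edgeR adjusted p 0.0132). For all 5 genes Cirrhosis-PTH replicate 6 sat among or below the Cirrhosis libraries, and for mt-Tr replicate 3 did so too.

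Genes that did not pass included both rRNAs, with log2 fold changes of 0.64 ± 0.37 for mt-Rnr1 and 0.53 ± 0.24 for mt-Rnr2. The mt-Co1 mRNA had 2436, 6307 and 7695 CPM in Cirrhosis-PTH livers and a log2 fold change over Cirrhosis of 0.49 ± 0.20 (edgeR adjusted p 0.0589). For mt-Nd1 the value was 0.59 ± 0.26, for mt-Nd2 0.53 ± 0.42, for mt-Cytb 0.28 ± 0.27, for mt-Atp6 0.41 ± 0.36 and for mt-Nd4l 0.22 ± 0.34. The standard error of mt-Nd4l was wider than its change, and those of mt-Cytb, mt-Atp6 and mt-Nd2 were nearly as wide. These values do not show that the RNAs were alike in both groups.

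Against Control livers the Cirrhosis-PTH livers were lower for mt-Co2 and mt-Co3, and no other gene passed. All 36 log2 fold changes were below 0, from -1.11 to -0.05, with a median of -0.56 against 0.0055 over all genes. In that comparison 8.82% of all genes passed, 2.48% lower and 6.34% higher. None of the 36 genes had separate libraries, against 1.40% of all genes separate and lower and 3.07% separate and higher. The mt-Co2 mRNA had 342, 592 and 709 CPM in Cirrhosis-PTH livers, against 638, 876 and 1038 CPM in Control livers, with a log2 fold change of -0.60 ± 0.15 (edgeR adjusted p 0.017). The Cirrhosis-PTH libraries reached into the Control range. The mt-Co3 mRNA changed by -0.50 ± 0.14 (edgeR adjusted p 0.0298). The largest changes, mt-Nd2 at -1.11 ± 0.43, mt-Atp8 at -1.03 ± 0.47 and mt-Rnr1 at -1.01 ± 0.37, did not pass. The 3 comparisons share groups, so their values are given side by side and are not independent.

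**Figure D3:**
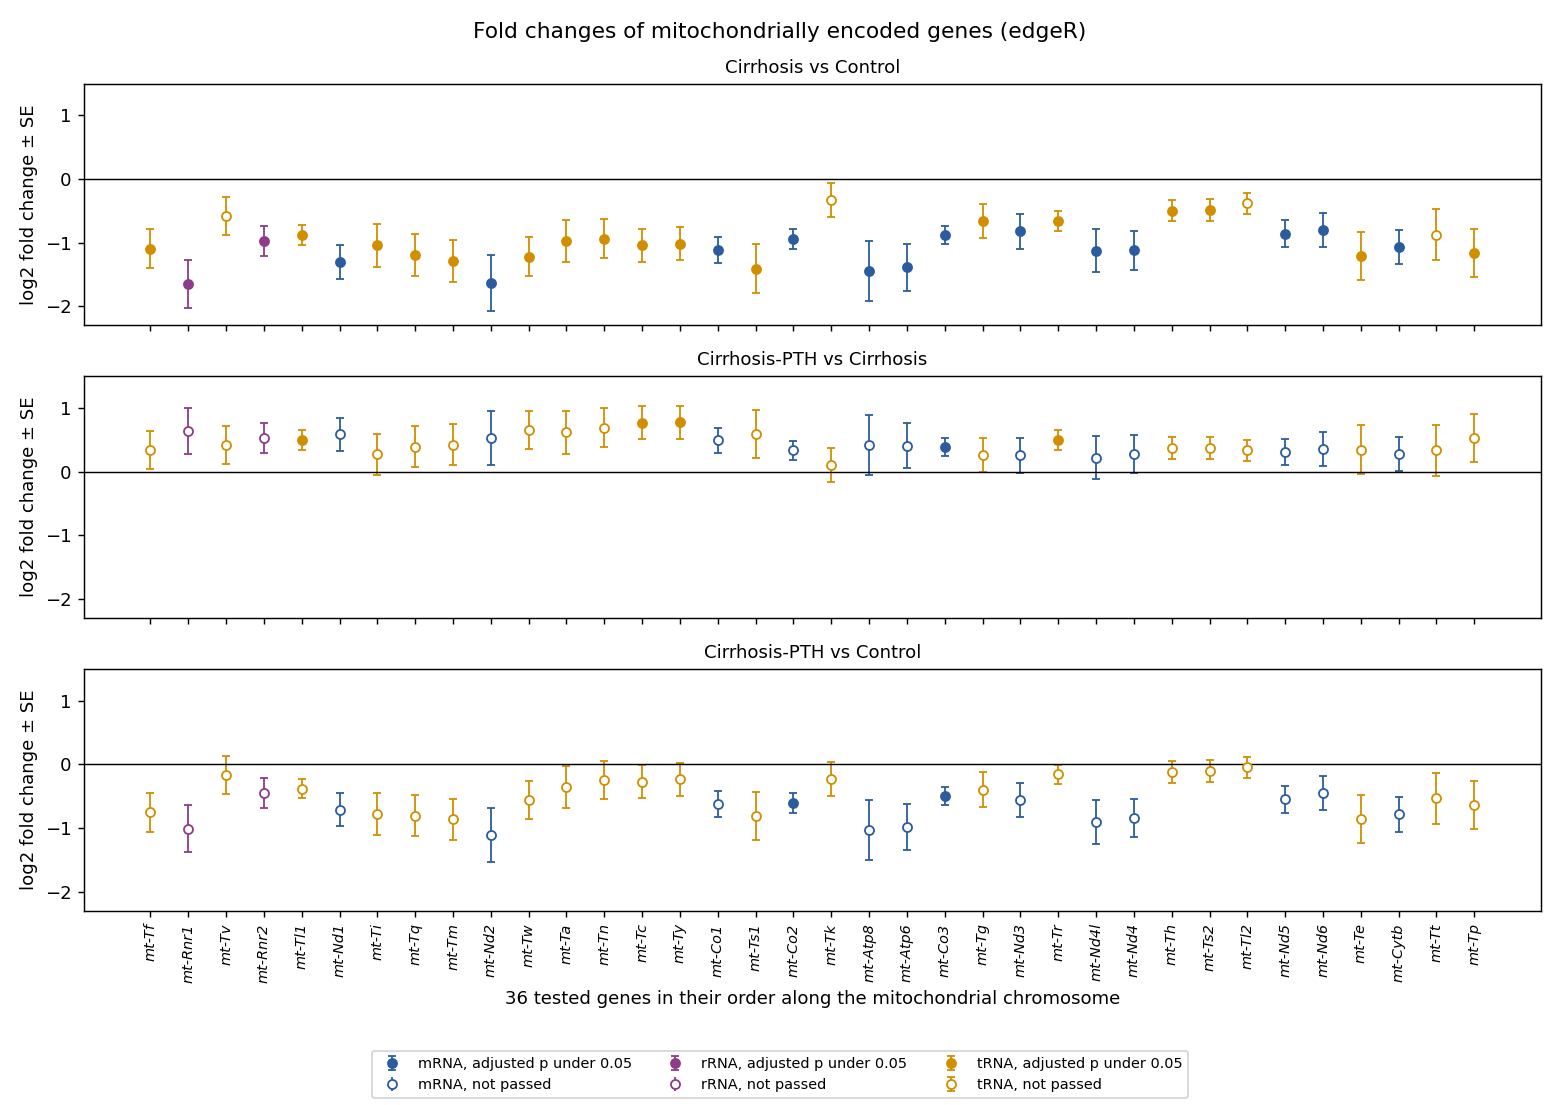
Log2 fold change ± SE of the 36 tested genes, in order along the mitochondrial chromosome, in each comparison; filled points passed the edgeR test at an adjusted p under 0.05. All values are below 0 in Cirrhosis over Control, above 0 in Cirrhosis-PTH over Cirrhosis and below 0 in Cirrhosis-PTH over Control under TMM scaling.

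The Cirrhosis-PTH livers differed widely among themselves, and single libraries decided how many genes passed. Replicate 6 had the lowest level of its group for 32 of 36 genes and replicate 2 the highest for 33. Relative to the mean Control level, the median of the 13 mRNAs was -1.93 on the log2 scale in replicate 6, -1.21 in replicate 3 and -0.12 in replicate 2. The 6 Cirrhosis livers lay closer together, between -1.34 and -0.82, and the Control livers between -0.82 and 0.52. Control replicate 1, at -0.82, had the lowest level of its group for 33 of 36 genes, and Control replicate 7 the highest for 20. The mt-Nd2 mRNA was at 21.9 CPM in Cirrhosis-PTH replicate 6, below all other libraries of the study. That library also had the lowest share of ribosomal RNA loci, 31.4%, and its hepatocyte markers summed to 61826 CPM, within the range of its group. What part its ribosomal RNA share plays in its low mitochondrial levels was not tested.

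Without Cirrhosis-PTH replicate 6, 4375 of 22181 genes tested were higher in Cirrhosis-PTH than in Cirrhosis livers. Of the 36 mitochondrially encoded genes 16 were higher, and their median was 0.55. Among them were mt-Rnr2 at 0.70, mt-Co1 at 0.65, mt-Nd1 at 0.73 and mt-Nd5 at 0.46. Without Cirrhosis-PTH replicate 3, 9 passed, where 4264 of 22217 genes tested were higher. Without Cirrhosis-PTH replicate 2, 4 or 5 or Cirrhosis replicate 4, 2 passed, and without Cirrhosis replicate 2 or 5, 3 passed. In those fits 3840 to 4253 of all genes tested were higher. The median of the 36 genes was 0.22 without Cirrhosis-PTH replicate 2. In Cirrhosis-PTH over Control, 15 of the 36 genes were lower without Cirrhosis-PTH replicate 2 and 5 without Control replicate 1. The same fits had 588 of 22323 and 611 of 22285 genes tested lower. In that comparison 1 of the 36 passed without Cirrhosis-PTH replicate 3 or 6 or Control replicate 2, 6 or 7. There 334 to 526 of all genes tested were lower. No label sets any of these libraries apart, and all were kept in the values above.

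**Figure D4:**
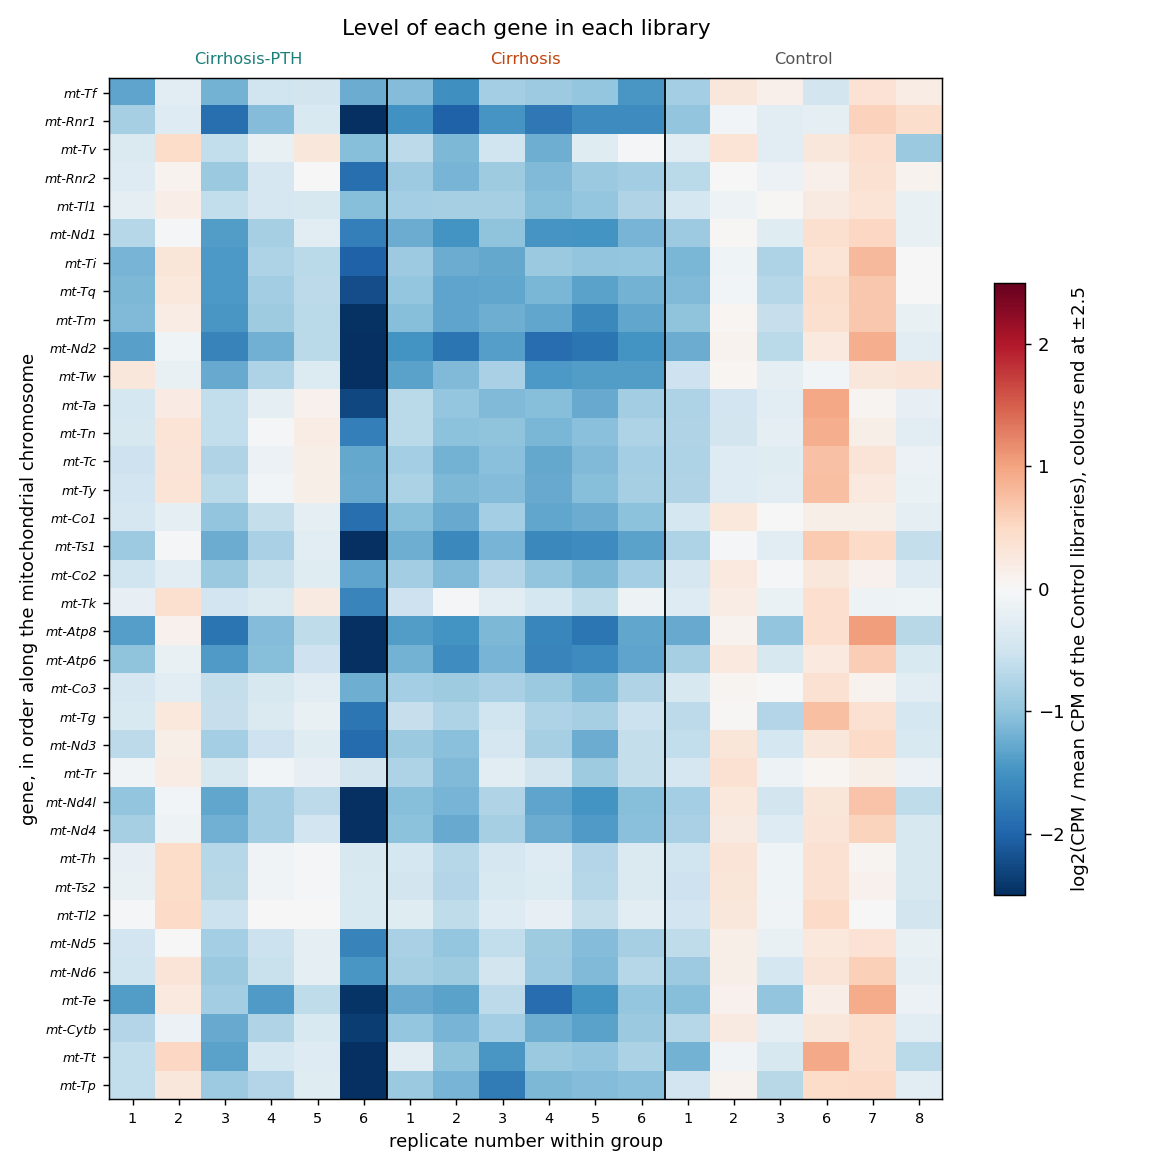
Log2 of the CPM of each gene in each library over its mean in the 6 Control libraries, with genes in order along the mitochondrial chromosome. Cirrhosis-PTH replicate 6 is the darkest column, and Cirrhosis-PTH replicate 2 lies near the Control mean.

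Relative to its mean, the share of mt-Co1 among the mitochondrial mRNA counts spread less than that of mt-Nd2 in each group. The counts of mt-Co1 are the larger part of that total, which by itself limits the relative spread of its share. The mt-Co1 mRNA took 56.9 ± 2.02% of the mitochondrial mRNA counts in Cirrhosis-PTH, 55.0 ± 1.21% in Cirrhosis and 56.7 ± 3.08% in Control livers (SD, n = 6 each). The share of mt-Co3 was 12.2 ± 2.34%, 12.0 ± 0.869% and 10.5 ± 0.989% in the same order of groups. The share of mt-Nd5 was 5.64 ± 0.283% in Cirrhosis-PTH, 6.13 ± 0.275% in Cirrhosis and 5.23 ± 0.347% in Control livers, and no Cirrhosis library overlapped a Control library. The share of mt-Nd2 was 1.06 ± 0.399%, 1.09 ± 0.0597% and 1.54 ± 0.550% in Cirrhosis-PTH, Cirrhosis and Control livers. In Cirrhosis-PTH replicate 6 the mt-Nd2 share was 0.489% and the mt-Co3 share 16.1%, the lowest and the highest of all libraries. These shares were compared by their values alone, with no test.

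Ratios of counts within a library do not depend on how libraries are scaled. The ratio of mt-Rnr2 to mt-Rnr1 was 9.64 to 19.98 in Cirrhosis-PTH livers, 11.1 to 13.4 in Cirrhosis livers and 5.84 to 9.37 in Control livers. All 12 CCl4-treated livers thus lay above all 6 Control livers, with and without Pien Tze Huang. On the log2 scale the Cirrhosis mean was 3.57 ± 0.10 and the Control mean 2.94 ± 0.27 (SD, n = 6 each). The difference was 0.63 (two-sided exact permutation p 0.00216, the smallest that 6 against 6 libraries can give; 0.013 after Benjamini-Hochberg adjustment over 12 ratio tests). Cirrhosis-PTH livers, at 3.61 ± 0.41, exceeded Control livers by 0.67 (exact permutation adjusted p 0.013). Without Control replicate 8 that difference was 0.59 and did not pass (exact permutation adjusted p 0.0519). They differed from Cirrhosis livers by 0.04 (exact permutation adjusted p 0.935), with values on both sides. The remaining ratios, mt-Rnr1 to mt-Nd1, mt-Nd6 to mt-Nd5 and mt-Atp8 to mt-Atp6, gave adjusted exact permutation p-values from 0.303 upward. Whether removal of ribosomal RNA acted unequally on the 12S and 16S rRNAs in the groups was not tested.

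**Figure D5:**
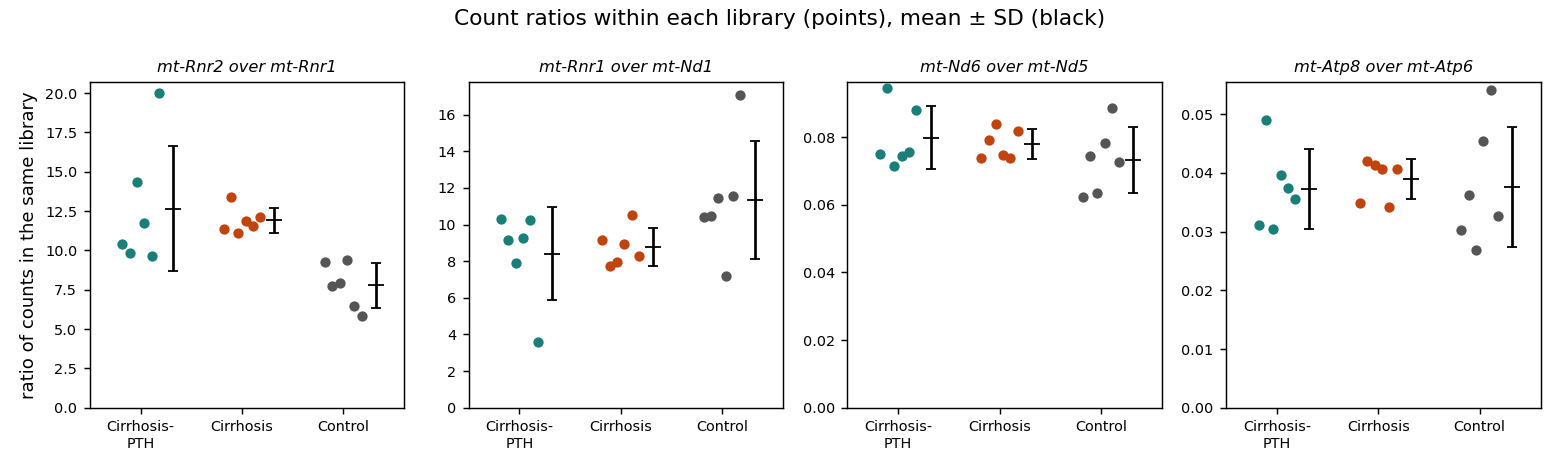
Ratios of counts within each library for 4 pairs of genes, with the group mean ± SD (n = 6) in black. The mt-Rnr2 to mt-Rnr1 ratio is above 9.6 in all Cirrhosis-PTH and Cirrhosis libraries and below 9.4 in all Control libraries.

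The nuclear genes that serve the same organelle give the setting. They were taken from lists of respiratory subunits, assembly factors, mitochondrial ribosomal proteins and genes that serve mitochondrial DNA, RNA and translation. Lists of nuclear regulators, membrane and matrix content, the mitochondrial stress response, and division, fusion and clearance were included too. Without Lars2 this gave 375 tested genes in all. In Cirrhosis over Control livers 247 were lower and 23 higher, with a median of -0.41, where 25.0% of all genes were lower and 25.5% higher. In Cirrhosis-PTH over Cirrhosis livers 201 were higher and 25 lower, with a median of 0.31, where 20.1% of all genes were higher and 18.6% lower. In Cirrhosis-PTH over Control livers 13 were lower and 1 higher, where 2.48% of all genes were lower and 6.34% higher. With libraries scaled by totals alone the balance turned, and that of all 21914 genes tested shifted the same way. In Cirrhosis over Control 13 of the 375 were lower and 171 higher, where 1116 of all genes were lower and 12934 higher. In Cirrhosis-PTH over Cirrhosis 24 were higher and 57 lower, where 1506 of all genes were higher and 6818 lower. In Cirrhosis-PTH over Control 2 were lower and 54 higher, where 146 of all genes were lower and 6236 higher. The counts and fold changes of nuclear genes that follow are under TMM scaling. Against the balance of the 375, the stress response list had 7 of 17 genes higher and 5 lower in Cirrhosis over Control. In Cirrhosis-PTH over Cirrhosis 3 of those 17 were higher and 8 lower.

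By complex, 36 of 36 nuclear complex I subunits, 9 of 9 of complex III, 10 of 11 of complex IV and 14 of 15 of complex V were lower in Cirrhosis than in Control livers. In Cirrhosis-PTH over Cirrhosis livers 35, 9, 8 and 12 of them were higher. Of all genes tested, 25.0% were lower in Cirrhosis than in Control and 20.1% higher in Cirrhosis-PTH than in Cirrhosis. The summed counts of mitochondrial over nuclear complex IV subunits gave a ratio within each library of 11.2 ± 3.19 in Cirrhosis-PTH, 11.6 ± 0.775 in Cirrhosis and 16.03 ± 2.61 in Control livers (SD, n = 6 each). For complex V that ratio was 0.147 ± 0.0768, 0.161 ± 0.0205 and 0.270 ± 0.1002 in the same order. These ratios overlapped between groups for both complexes and were not tested.

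Among genes that make and keep mitochondrial RNA, Tfam, which packages mitochondrial DNA and starts its transcription, was lower in Cirrhosis livers at 15.98 ± 1.61 CPM, against 22.4 ± 2.22 CPM in Control livers (SD, n = 6 each; log2 fold change -0.49, edgeR adjusted p 3.4e-05). It was 22.2 ± 1.80 CPM in Cirrhosis-PTH livers and higher there than in Cirrhosis (0.47, edgeR adjusted p 6.9e-05). Lrpprc, which stabilises mitochondrial mRNAs, was at 104 ± 7.64 CPM in Cirrhosis-PTH, 77.9 ± 5.41 CPM in Cirrhosis and 114 ± 9.86 CPM in Control livers. It was lower in Cirrhosis than in Control (-0.55) and higher in Cirrhosis-PTH than in Cirrhosis (0.41), both past the threshold. The mitochondrial RNA polymerase Polrmt did not pass in either comparison (-0.19 and 0.22). Tfb2m, its partner in starting transcription, was lower in Cirrhosis than in Control livers (-0.32), as was Elac2, which cuts the 3′ ends of tRNAs (-0.20), and neither passed in Cirrhosis-PTH over Cirrhosis. Ppargc1a, a nuclear coactivator of mitochondrial genes, did not pass in Cirrhosis over Control (-0.20) and was higher in Cirrhosis-PTH than in Cirrhosis livers (0.61, edgeR adjusted p 0.00348).

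The transcription and regulator genes with the smallest p-values in each direction were others. In the transcription list Mterf4, a factor that binds mitochondrial ribosomal RNA, changed by -0.89 in Cirrhosis over Control and by 0.64 in Cirrhosis-PTH over Cirrhosis. Mrpl12, a protein of the large mitochondrial ribosomal subunit, changed by -0.84 and 0.75 in the same comparisons. Among the regulators Ppara, a nuclear receptor that drives fatty acid oxidation, changed by -1.22 and 0.98, and Ppargc1b, a coactivator related to Ppargc1a, by -2.26 and 2.04. Pprc1, of the same coactivator family, went the other way, at 0.93 and -1.14. All of these passed the edgeR test. Esrrg, an orphan nuclear receptor, was scarce, at 0.156 ± 0.0930 CPM in Cirrhosis and 2.93 ± 1.23 CPM in Control livers (SD, n = 6 each; log2 fold change -4.22, edgeR adjusted p 1.83e-08), and did not pass in Cirrhosis-PTH over Cirrhosis (0.55).

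In the list of RNA processing and decay, 10 of 24 genes were lower and 2 higher in Cirrhosis than in Control livers. Grsf1, a protein of mitochondrial RNA granules, changed by -0.86 and Fastkd1 by -0.90, while the poly(A)-removing enzyme Pde12 was higher at 0.58. In Cirrhosis-PTH over Cirrhosis livers 7 were higher and 2 lower, with Grsf1 at 0.72 and Pde12 at -0.62. Of the mitochondrial ribosomal protein genes 53 of 80 were lower and 2 higher in Cirrhosis than in Control livers, and 35 were higher and 2 lower in Cirrhosis-PTH than in Cirrhosis. Of all genes tested, 20.1% were higher and 18.6% lower in Cirrhosis-PTH than in Cirrhosis. Of the mitochondrial tRNA synthetases 12 of 23 were lower and 2 higher in Cirrhosis than in Control livers. That list includes Lars2, the leucyl-tRNA synthetase, whose locus collects ribosomal RNA reads, at 30350 ± 5044 CPM in Cirrhosis and 60575 ± 15966 CPM in Control livers, so its count does not measure the synthetase. Of 20 genes that maintain mitochondrial DNA, 8 were lower and 4 higher in Cirrhosis than in Control livers, with Polg2, an accessory subunit of the mitochondrial DNA polymerase, at -1.17 and its catalytic partner Polg not past the threshold at -0.06. In Cirrhosis over Control the number lower exceeded the 25.0% share of all genes, and the number higher fell short of the 25.5% share, in each of these 4 lists.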

How the data were processed

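Total RNA of mouse liver was depleted of ribosomal RNA and made into libraries with an NEBNext kit, per the labels' protocols. The deposited table holds raw gene counts, made by the authors; HISAT2 2.2.1, StringTie 2.1.5 and build GRCm38 are named in the submitters' processing notes, and strand use and the treatment of reads with several matches are not given in the sources used here. Counts were fitted in R 4.3.3 with edgeR 4.0.16 (quasi-likelihood, robust, TMM factors, all 18 libraries, filterByExpr), with p-values adjusted over 21914 genes at a threshold of 0.05. The SE of a log2 fold change is its absolute value divided by the square root of the F statistic of that test. The same steps were run on simulated counts in which a small set of genes changed between otherwise equal groups. That setting does not test the choice of scaling. Count ratios within libraries were compared by exact permutation. Copies of mitochondrial genes were found by BLAST 2.17.0 of GENCODE M21 transcripts at 99% identity or more. The genes and lists, and the text's rule for naming (all mRNAs and rRNAs, the 6 most abundant and the 6 most significant tRNAs, in each nuclear list the 2 most significant genes per direction, and Lars2, Polrmt, Tfam, Tfb2m, Lrpprc, Elac2 and Ppargc1a), were chosen with earlier results of these data known. The text gives values for part of the nuclear genes so chosen. Genes outside that rule (mt-Td, mt-Tv, mt-Tl2, mt-Tt, mt-Tk, mt-Th, mt-Ts2, mt-Tp and Polg) were named after their values were seen. Alternatives tried were other scalings, filters, tests (DESeq2 1.42.0, limma 3.58.1), single libraries left out, Control replicates 7 and 8 left out together and a replicate block. Each library is 1 mouse, so the tests set group differences against the variation between these mice.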

Additional observations from a re-analysis of the deposited data

Results flagged for a closer look

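Of 192 sets of 6 libraries examined, 8 held a library whose gap to its nearest neighbour was a large part of the group's range; chance alone gives about 1 in 20, or 9.6 here. Cirrhosis-PTH replicate 6 was the lowest of its group in the mt-Rnr1 to mt-Nd1 ratio at 3.61, with the next at 7.92, and in the mt-Nd4l copy to gene ratio at 0.797, with the next at 0.892. It was the highest in the mt-Co2 share of mitochondrial mRNA counts at 7.64%, with the next at 5.59%. Cirrhosis replicate 4 was the highest of its group in that share at 6.32%. Cirrhosis replicate 3 was lowest in mt-Tp at 0.403 CPM and in the mt-Co3 copy to gene ratio at 0.942. Control replicate 6 was highest in mt-Ta at 24.5 CPM, with the next at 13.1 CPM, and Control replicate 7 was lowest in the mt-Nd4l copy to gene ratio at 0.882.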

How the results depend on the processing

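The drop in Cirrhosis livers depends most on scaling, and the Cirrhosis-PTH comparisons on single libraries as well. With libraries scaled by totals alone, 3, 0 and 0 mitochondrially encoded genes passed in Cirrhosis over Control, Cirrhosis-PTH over Cirrhosis and Cirrhosis-PTH over Control, and the first median was -0.298. Nuclear genes of mitochondrial function then numbered 171 higher and 13 lower, 24 and 57, and 54 and 2. All genes tested then numbered 12934 higher and 1116 lower, 1506 and 6818, and 6236 and 146. With totals outside mitochondrial and ribosomal loci, a scaling added after seeing the data, 11, 0 and 1 mitochondrially encoded genes passed. The nuclear genes of mitochondrial function were then 117 higher and 75 lower, 87 and 71, and 17 and 3. Of all 21914 genes tested, 10959 were higher and 2109 lower, 2237 and 7559, and 3529 and 215. No filter on low counts gave 3 mitochondrially encoded genes in Cirrhosis-PTH over Cirrhosis, where 4051 of 36398 genes tested were higher. In Cirrhosis-PTH over Control, the 12 libraries alone gave 1, where 558 of 19994 genes tested were lower. DESeq2 gave 10 there, where 819 of 25755 genes tested were lower. The cause was not tested.

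Directions turned for some single genes. With totals alone, mt-Tr was 0.0621 in Cirrhosis over Control. In Cirrhosis-PTH over Cirrhosis, mt-Co2 was -0.0464, mt-Atp8 -1e-04, mt-Atp6 -0.0037, mt-Nd3 -0.1331, mt-Nd4l -0.1838, mt-Nd4 -0.1205, mt-Nd5 -0.08, mt-Nd6 -0.041, mt-Cytb -0.1218, mt-Tq -0.0156, mt-Tf -0.024 and mt-Te -0.036. In Cirrhosis-PTH over Control, mt-Tc was 0.0552, mt-Ty 0.088, mt-Tn 0.0635 and mt-Tr 0.1993. With totals outside those loci, mt-Nd3 was -0.0387, mt-Nd4l -0.0828, mt-Nd4 -0.0172 and mt-Cytb -0.0182 in Cirrhosis-PTH over Cirrhosis, and mt-Tr 0.0273 in Cirrhosis-PTH over Control. With single libraries left out, mt-Tn ranged from -0.392 to 0.041 in Cirrhosis-PTH over Control, the highest without Control replicate 6. In Cirrhosis-PTH over Cirrhosis mt-Nd4l ranged from -0.0275 to 0.407 and mt-Te from -0.017 to 0.532, the lowest without Cirrhosis-PTH replicate 2.

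Without Control replicates 7 and 8 together 24, 4 and 2 genes passed in the 3 comparisons. Of all 22867 genes tested in that fit, 4613 were lower, 4226 higher and 369 lower in the same order. Leaving out each library in turn, 27 to 34, 2 to 16 and 1 to 15 genes passed in the 3 comparisons. Their medians were -1.14 to -0.91, 0.22 to 0.55 and -0.70 to -0.39. Of all genes tested, 4862 to 5489 were lower, 3840 to 4481 higher and 334 to 611 lower in the same order. The log2 mt-Rnr2 to mt-Rnr1 difference ranged over 0.555 to 0.691, -0.102 to 0.108 and 0.531 to 0.741. For mt-Rnr1 to mt-Nd1 it was -0.458 to -0.208, -0.204 to 0.0987 and -0.588 to -0.236, with the lowest values of the first and last past the threshold, without Control replicate 6. Without Control replicate 8, the mt-Rnr2 to mt-Rnr1 difference of Cirrhosis-PTH over Control was 0.594 and did not pass. The mt-Nd6 to mt-Nd5 difference was -0.02 to 0.0606 in Cirrhosis-PTH over Cirrhosis. The mt-Atp8 to mt-Atp6 difference was -0.0002 to 0.202, -0.163 to -0.026 and -0.0807 to 0.122.

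Same-numbered libraries did not deviate together (correlations from -0.064 to 0.051, none above 0.1). With a replicate block 15, 2 and 0 genes passed. The paired mt-Rnr2 to mt-Rnr1 differences from Control were 0.483 in Cirrhosis and 0.612 in Cirrhosis-PTH livers, where 4 pairs cannot give an exact permutation p below 0.125. Of single-gene values under all alternatives, 2339 kept their direction and side of the threshold, 107 no longer passed, 40 newly passed and 25 turned. Depth limits mainly the tRNAs with few counts.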
